A study of Sus scrofa with 22 samples.

Results

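miR-32, miR-92a and miR-92b-3p are microRNAs that share 1 seed, the bases 2 to 8 that pair with target mRNAs, and they were followed through small RNA sequencing of subcutaneous fat from 22 female pigs of 6 months. Members were found by name in the deposited tables, whose rows each hold a read sequence and a miRNA name, and all rows of a name were summed per library. That gave 3 names of 250 in the tables. miR-25 and miR-363, which belong to the same family, were not analysed here. The pigs were of 3 breeds and their fat is labelled thick or thin: Hampshire with 5 libraries of thick and 2 of thin fat, Pietrain with 4 and 3, and Large White with 4 and 4. No treatment is labelled, and the series' title names fatness as its subject.

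MicroRNAs are short RNAs that guide Argonaute proteins to mRNAs, mostly through the seed, and so lower the output of those mRNAs. miR-92a is cut from the last hairpin of the miR-17-92 cluster, a polycistron known for its activity in dividing cells, and from a paralogous cluster. miR-92b comes from a gene of its own, and miR-32 from an intron of TMEM245, a membrane protein gene. In the RefSeq gene table of Sscrofa11.1, MIR32 lies inside TMEM245 and MIR92B lies within 1000 bases of THBS3. MIR92A-1 has MIR17, MIR18A, MIR19A, MIR20A and MIR19B-1 within 1000 bases, and MIR92A-2 has MIR363-1, MIR19B-2, MIR20B-1, MIR18B and MIR106A. No coordinates are given, since the submitters' processing notes name the older build Sscrofa10.2.

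The leading read sequence of each member, taken from the deposited tables, is shown to set the shared seed (capitals) against the parts that differ.
miR-32: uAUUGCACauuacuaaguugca
miR-92a: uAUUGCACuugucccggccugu
miR-92b-3p: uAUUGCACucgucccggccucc
All 3 are 22 nt long. miR-32 shared the first 8 bases with both other members and 11 of 22 bases in all. miR-92a and miR-92b-3p had 19 of 22 bases in common, and the first base to differ between them was base 10. Of all sequences listed, 129 carried these 7 letters at bases 2 to 8, and each of them was named for 1 of the 3 members: 6 for miR-32, 109 for miR-92a and 14 for miR-92b-3p.

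Reads per library ran from 431542 to 2315501 in Hampshire, from 759210 to 3137757 in Pietrain and from 558144 to 2731336 in Large White. The smallest count above 0 was 6, so a sequence listed at 0 may have had up to 5 reads. Names linked to fat cells, miR-148a-3p and miR-26a among them and none specific to fat, together held 176077 to 465141 CPM (counts scaled to equal library sizes, with TMM factors between libraries). The fat classes of 1 pair of libraries go against the authors' deposited table. Over 2701 sequences a DESeq2 refit of Large White fat by the labels matched the sign of the deposited comparison in 48.1%. With thick replicate 1 and thin replicate 1 exchanged it matched in 100%, as the Hampshire and Pietrain refits did by their labels. Differences between fat classes that rest on this pair are given both ways. Each breed was deposited as a table of its own, so breed and any library batch cannot be told apart. In whole tissue, fewer cells of a type and less RNA per cell cannot be told apart.

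miR-92a was the abundant member in every library. Its reads were 89.1 to 98.7% of the family's, with a mean of 96.4% ± 2.43 (SD, n = 22). It ranked between 19 and 31 among the names of a library, miR-32 between 66 and 120, and miR-92b-3p between 107 and 133. Read counts per library were 2101 to 26310 for miR-92a, 41 to 602 for miR-32 and 11 to 252 for miR-92b-3p, so the relative counting error is largest for miR-92b-3p. The family as a whole was 0.579% ± 0.343 (SD, n = 7) of named reads in Hampshire, 0.697% ± 0.252 (SD, n = 7) in Pietrain and 0.668% ± 0.137 (SD, n = 8) in Large White.

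The breeds differed in miR-32, whose mean level in Hampshire fat was 3.62 times that in Pietrain and 3.01 times that in Large White fat. In Hampshire thick fat its level was 277, 294, 229, 251 and 504 CPM, and in Hampshire thin fat 177 and 257 CPM. In Pietrain it was 49.1, 74.0, 112 and 105 CPM in thick and 67.6, 85.3 and 56.1 CPM in thin fat. In Large White it was 81.3, 81.3, 67.4 and 101 CPM in thick and 171, 83.8, 80.3 and 89.5 CPM in thin fat. All 7 Hampshire libraries were above all 7 Pietrain and all 8 Large White libraries, with the lowest Hampshire library at 177 CPM and the highest other one, Large White thin fat replicate 1, at 171 CPM. Over all names tested, edgeR called 18.9% in the comparison with Pietrain and 17.5% in that with Large White. These shares count calls in either direction, which is not the same as a lack of overlap. How many of all names separated the breeds as fully as miR-32 was not tested. Pietrain and Large White libraries overlapped in miR-32.

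Means were 284 ± 104 CPM (SD, n = 7) in Hampshire, 78.5 ± 23.8 CPM (SD, n = 7) in Pietrain and 94.5 ± 32.4 CPM (SD, n = 8) in Large White. With thick and thin fat weighted equally, the log2 fold change of miR-32 was 1.47 ± 0.24 (SE, 95% interval 0.97 to 1.97) in Hampshire against Large White (edgeR adjusted p = 3.15e-04). Of 206 names tested, 36 were called in that comparison, of which 19 (9.22%) were higher in Hampshire. Hampshire against Pietrain gave 1.76 ± 0.25 (1.23 to 2.28; edgeR adjusted p = 5.34e-05), among 39 of 206 names called, 22 of them (10.7%) higher in Hampshire. Both comparisons share the Hampshire libraries. Scaling by library totals alone moved the split to 13 higher of 45 called against Large White and 15 of 41 against Pietrain, with miR-32 at 1.18 and 1.52 and called in both. That scaling put the median of all names at -0.29 and -0.24, beside -0.02 and -0.04 with TMM. Pietrain against Large White gave -0.29 ± 0.23 (-0.77 to 0.20; edgeR adjusted p = 0.753). There edgeR called 0 of 206 names (0%), with 25 at an unadjusted p under 0.05, while DESeq2 called 7 and limma-voom 0. In thin fat alone, with 2 Hampshire libraries, the Hampshire difference from Large White was 1.03 and no longer passed (edgeR adjusted p = 0.116), while that from Pietrain was 1.64 and did (0.0116). With the Large White pair exchanged, the thin fat difference from Large White was 1.37 and passed (edgeR adjusted p = 0.0215), and that in thick fat was 1.56 (0.00331). These p-values weigh a difference against the scatter of the sequenced libraries alone.

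**Figure D1:**
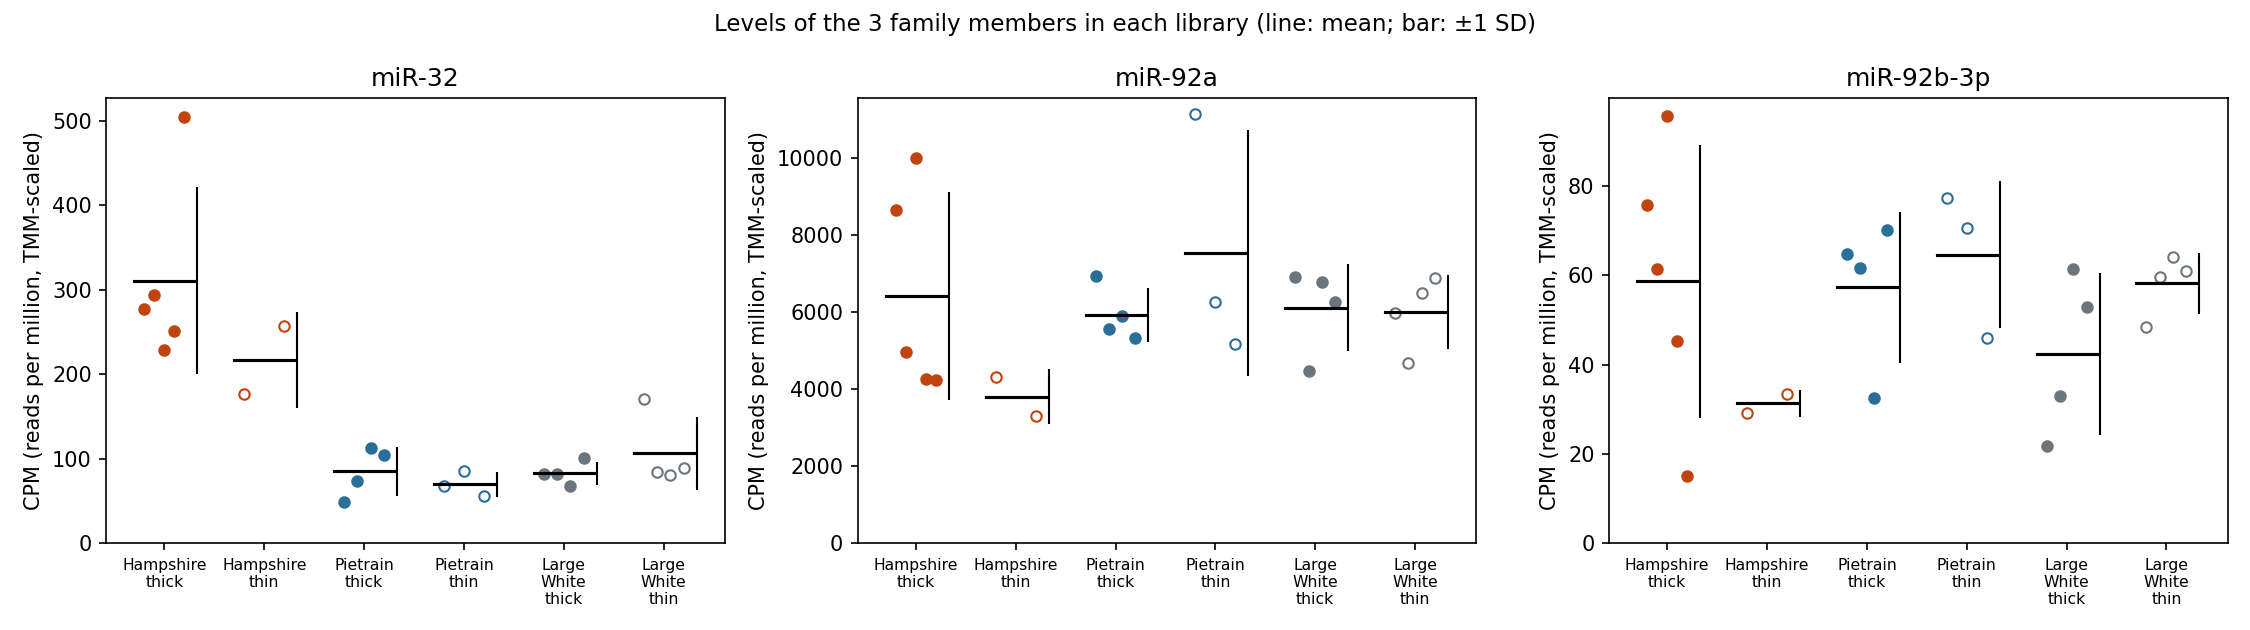
Level of miR-32, miR-92a and miR-92b-3p (CPM, linear axes from 0, a scale of its own for each miRNA) in the 22 libraries, by breed and fat class, with filled points for thick and open points for thin fat. Lines are group means and bars 1 SD. The 7 Hampshire libraries of miR-32 lie between 177 and 504 CPM, above all others, while miR-92a and miR-92b-3p overlap between breeds.

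miR-92a did not follow miR-32. In Hampshire it had 8647, 4974, 9995, 4251 and 4236 CPM in thick and 4312 and 3296 CPM in thin fat. In Pietrain it had 6926, 5570, 5908 and 5326 CPM in thick and 11157, 6268 and 5174 CPM in thin fat. Large White had 6922, 4472, 6781 and 6269 CPM in thick and 5971, 4665, 6488 and 6877 CPM in thin fat. The breeds overlapped, and Hampshire held both the lowest level, 3296 CPM, and a level near the top, 9995 CPM. Of the 7 Hampshire libraries, 5 were below all 7 Pietrain libraries and 0 above all of them. Against the 8 Large White libraries, 4 Hampshire libraries were below all and 2 above all. Means were 5673 ± 2569 CPM (SD, n = 7) in Hampshire, 6618 ± 2089 CPM (SD, n = 7) in Pietrain and 6056 ± 973 CPM (SD, n = 8) in Large White.

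Fitted log2 fold changes of miR-92a were -0.29 ± 0.22 (-0.76 to 0.17) for Hampshire against Large White and -0.44 ± 0.23 (-0.92 to 0.04) for Hampshire against Pietrain. That for Pietrain against Large White was 0.14 ± 0.21 (-0.29 to 0.58). No comparison passed (edgeR adjusted p = 0.394, 0.205 and 1.0). The intervals leave room for a level in Hampshire down to 0.92 log2 units below Pietrain. In thick fat alone both Hampshire differences of miR-92a were above 0, at 0.07 against Large White and 0.11 against Pietrain. Thin fat went the other way. Hampshire thin fat averaged 3804 ± 719 CPM of miR-92a (SD, n = 2). Pietrain thin fat averaged 7533 ± 3186 CPM (SD, n = 3). Large White thin fat averaged 6000 ± 964 CPM (SD, n = 4). Over the alternative settings the Hampshire differences reached down to -0.71 against Large White and -0.99 against Pietrain, without a call.

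miR-92b-3p was the scarcest member. It had 75.8, 61.5, 95.7, 45.3 and 15.1 CPM in Hampshire thick and 29.2 and 33.5 CPM in Hampshire thin fat. In Pietrain it had 64.9, 61.7, 32.4 and 70.3 CPM in thick and 77.4, 70.6 and 46.0 CPM in thin fat. In Large White it had 21.8, 32.9, 61.5 and 53.0 CPM in thick and 48.4, 59.5, 64.2 and 60.9 CPM in thin fat. The breeds overlapped. Fitted log2 fold changes were -0.21 ± 0.34 for Hampshire against Large White, -0.50 ± 0.35 for Hampshire against Pietrain and 0.29 ± 0.32 for Pietrain against Large White, and none passed (edgeR adjusted p = 0.781, 0.354 and 0.873). Its interval for Hampshire against Pietrain ran from -1.24 to 0.24. Hampshire thick fat replicate 5, highest of all in miR-32 at 504 CPM, was lowest in CPM of miR-92b-3p, at 15.1 CPM from 12 reads. Large White thick fat replicate 1 had the fewest reads of it, 11.

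The miR-32 to miR-92a ratio within a library needs no scaling between libraries, and it was higher in Hampshire. In Hampshire thick fat there were 31.2, 16.9, 43.7, 17.0 and 8.40 reads of miR-92a per read of miR-32, and in thin fat 24.4 and 12.8. Pietrain had 50.8 to 165 with a median of 75.3 (n = 7), and Large White 34.9 to 100.6 with a median of 69.4 (n = 8). No Pietrain library reached the Hampshire range. Large White thin fat replicate 1, at 34.9, fell inside it, below Hampshire thick fat replicate 3 at 43.7.

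The mean log2 ratio of miR-32 to miR-92a was -4.28 ± 0.80 (SD, n = 7) in Hampshire, -6.41 ± 0.65 (SD, n = 7) in Pietrain and -6.04 ± 0.48 (SD, n = 8) in Large White. Two-sided exact permutation tests, adjusted over 6 tests of this ratio, gave a difference of 1.76 for Hampshire against Large White (adjusted p = 0.00186) and of 2.13 for Hampshire against Pietrain (adjusted p = 0.00186). The raw p of the comparison with Pietrain, 5.8e-04, is the smallest these group sizes allow in an exact permutation test. Pietrain against Large White differed by -0.37 (exact permutation test, adjusted p = 0.469). As a share of family reads, miR-32 was 5.43% ± 2.83 (SD, n = 7) in Hampshire, 1.25% ± 0.512 (SD, n = 7) in Pietrain and 1.56% ± 0.565 (SD, n = 8) in Large White.

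**Figure D2:**
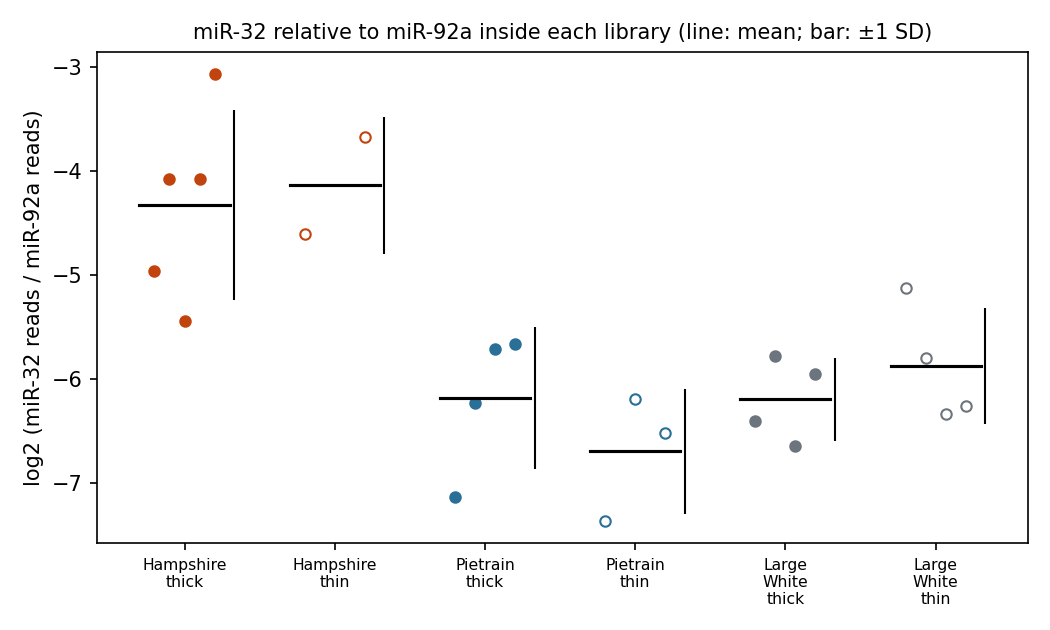
Log2 of miR-32 reads over miR-92a reads in each of the 22 libraries, by breed and fat class, with filled points for thick and open points for thin fat, means as lines and 1 SD as bars. Hampshire libraries lie between -5.45 and -3.07, all Pietrain libraries at or below -5.67, and 1 Large White thin fat library at -5.13 within the Hampshire range.

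Thick and thin fat, the classes the labels contrast, were not told apart by any member. In a fit of all 22 libraries that allowed for breed, the log2 fold change of thick against thin fat was 0.09 ± 0.21 (-0.34 to 0.53) for miR-32, 0.08 ± 0.20 (-0.33 to 0.50) for miR-92a and -0.02 ± 0.30 (-0.64 to 0.60) for miR-92b-3p. The edgeR adjusted p was 0.997 for each. edgeR called 0 of 206 names (0%), with 5 at an unadjusted p under 0.05, while DESeq2 called 2 and limma-voom 0.

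In Hampshire all 3 members had higher mean levels in thick than in thin fat. Means were 311 ± 111 CPM (SD, n = 5) in thick and 217 ± 56.8 CPM (SD, n = 2) in thin fat for miR-32. For miR-32 and for miR-92a, 3 of the 5 thick libraries were above both thin ones. For miR-92b-3p 4 were above both and 1 was below both. How many of all names separated the classes as far was not tested. The log2 fold changes were 0.53 ± 0.40, 0.82 ± 0.46 and 0.96 ± 0.79 for miR-32, miR-92a and miR-92b-3p, and none passed (edgeR adjusted p = 0.894, 0.894 and 0.895). edgeR called 0 of 172 names in Hampshire (0%), with 5 at an unadjusted p under 0.05, while DESeq2 called 3 and limma-voom 0. With 2 thin fat libraries the interval of miR-92a ran from -0.27 to 1.90.

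In Pietrain, miR-32 averaged 85.1 ± 29.1 CPM (SD, n = 4) in thick and 69.6 ± 14.7 CPM (SD, n = 3) in thin fat. Its log2 fold change was 0.32 ± 0.35, against -0.33 ± 0.26 for miR-92a and -0.16 ± 0.33 for miR-92b-3p (edgeR adjusted p = 0.993 for each). The miR-92a value rests on Pietrain thin fat replicate 1, at 11157 CPM, without which it was 0.04. edgeR called 0 of 161 names (0%), with 4 at an unadjusted p under 0.05, while DESeq2 called 1 and limma-voom 0.

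In Large White, miR-32 averaged 82.8 ± 13.8 CPM (SD, n = 4) in thick and 106 ± 43.5 CPM (SD, n = 4) in thin fat. The log2 fold change by the labels was -0.36 ± 0.30 for miR-32, 0.03 ± 0.16 for miR-92a and -0.44 ± 0.32 for miR-92b-3p (edgeR adjusted p = 0.958 for each). The pair of libraries that goes against the deposited table decides the sign for miR-32: with them exchanged it was 0.37 ± 0.29, miR-92a was at -0.05 and miR-92b-3p at -0.06, again without a call. edgeR called 0 of 170 names (0%), with 2 at an unadjusted p under 0.05, and DESeq2 and limma-voom called 0. Over all breeds the exchange moved miR-32 to 0.37 (edgeR adjusted p = 0.990) and miR-92a to 0.04.

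Whether the difference between fat classes varied between breeds was tested in 1 model. No member passed (edgeR adjusted p = 0.853 for miR-32 and 0.829 for miR-92a and miR-92b-3p). edgeR called 0 of 206 names (0%), with 11 at an unadjusted p under 0.05, while DESeq2 called 2 and limma-voom 0. The log2 ratio of miR-32 to miR-92a differed between thick and thin fat by -0.19 in Hampshire, 0.51 in Pietrain and -0.32 in Large White, where the exchange of the pair gave 0.32. Exact permutation tests gave adjusted p = 0.857, 0.480 and 0.480. The group sizes allow no raw p below 0.0952 in Hampshire, 0.0571 in Pietrain and 0.0286 in Large White. Beside the other ratio tests, even the last would stay above 0.05 after adjustment. These tests of fat classes therefore could not pass, and no conclusion is drawn from them.

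**Figure D3:**
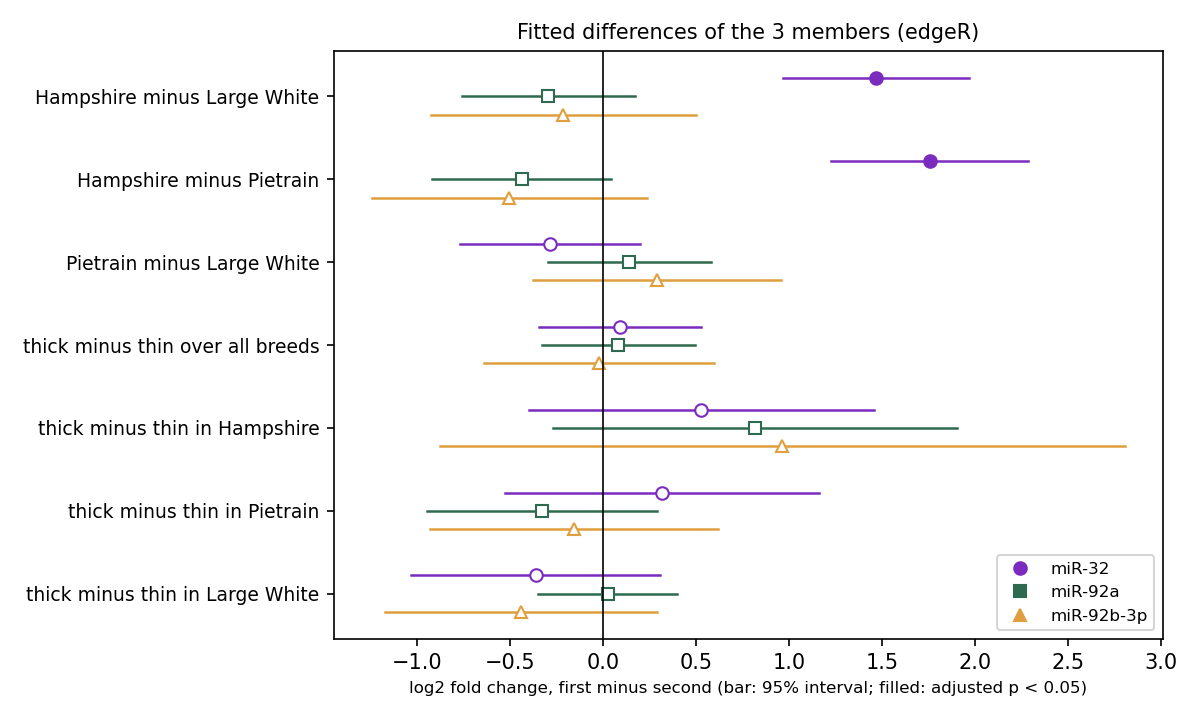
Fitted log2 fold change (x axis, first group minus second) of miR-32, miR-92a and miR-92b-3p in the 3 comparisons of breeds and the 4 of fat classes, with 95% intervals, filled where the edgeR adjusted p is under 0.05. The 2 filled points, 1.47 and 1.76, are miR-32 in Hampshire against Large White and against Pietrain.

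In the authors' deposited tables of fat classes, which test each sequence within a breed, no sequence of the 3 members passed the adjusted p threshold of 0.05. The authors' deposited table called 1 of 5391 sequences in Hampshire, 89 of 7039 in Pietrain and 0 of 6796 in Large White. The sign there was found to be thin minus thick. In the authors' deposited table the leading miR-32 sequence had a log2 fold change of -0.74 ± 0.37 (SE) in Hampshire, with a p of 0.0465 and an adjusted p of 0.973 from DESeq2. The leading miR-92a sequence had -0.88 ± 0.45 there, with a p of 0.0492 and the same adjusted p, in the authors' deposited table.

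Both main members were read as sets of closely related forms, which differed mostly at the 3′ end. The next most abundant miR-32 and miR-92a reads are shown to make these ends visible, with the seed again in capitals.
miR-32, 21 nt: uAUUGCACauuacuaaguugc
miR-32, 21 nt with another end: uAUUGCACauuacuaaguugu
miR-92a, 23 nt: uAUUGCACuugucccggccugua
miR-92a, 22 nt with another end: uAUUGCACuugucccggccugc
miR-92b-3p, 22 nt with another end: uAUUGCACucgucccggccucu
The leading sequence held 68.2% ± 4.88 (SD, n = 22) of miR-32 reads, 53.4% ± 2.65 (SD, n = 22) of miR-92a reads and 44.6% ± 15.0 (SD, n = 22) of miR-92b-3p reads. The 21 nt form that lacks the last A held 24.8% ± 4.32 (SD, n = 22) of miR-32 reads, and the 21 nt form ending in U held 5.67% ± 2.97. The 23 nt form longer by A held 16.6% ± 2.53 (SD, n = 22) of miR-92a reads, and the 22 nt form ending in C held 8.39% ± 0.588. Reads longer than the leading sequence were found in miR-92a and miR-92b-3p, while no miR-32 sequence in the tables was longer than 22 nt. Whether the extra bases are part of the hairpin was not tested. Reads longer by A were 17.4% ± 2.68 and reads longer by U 9.32% ± 1.25 of the miR-92a total (SD, n = 22). In miR-92b-3p, which had few reads, they were 1.74% ± 2.65 and 9.69% ± 7.82 (SD, n = 22).

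The 5′ end, which sets the seed, was nearly fixed. All sequences of miR-32 and miR-92b-3p carried the seed at bases 2 to 8. Of miR-92a, 8 sequences did not, and they held 1.18% ± 0.248 (SD, n = 22) of its reads, between 0.832 and 1.89% in a library. The main one, present in all 22 libraries with 1749 reads, starts 1 base later, so that its bases 2 to 8, in capitals, are no longer the family seed.
miR-92a, start 1 base later: aUUGCACUugucccggccugu
For a few reads the name and the first bases went with different members. Of the sequences named miR-92a, 4 shared more of their first bases with the leading miR-92b-3p sequence, and they held 698 reads, 0.285% of miR-92a but a number that compares with 2228 reads of miR-92b-3p in all. The chief one, with 525 reads, differs from the leading miR-92a sequence only at base 10, where it has the C of miR-92b-3p. Its end is that of miR-92a. Other changes of 1 U to C in miR-92a had similar numbers of reads, 440 at base 12 and 325 at base 9.
named miR-92a: uAUUGCACucgucccggccugu
Whether another naming of these reads would change the levels of miR-92b-3p was not tested.

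The forms of miR-32 differed between breeds by a small amount. Its leading 22 nt sequence held 72.0% ± 5.37 (SD, n = 7) of its reads in Hampshire, 65.7% ± 4.77 (SD, n = 7) in Pietrain and 66.9% ± 2.20 (SD, n = 8) in Large White. These groups pool the fat classes: the share was 74.6% ± 3.64 (n = 5) in Hampshire thick fat, 65.2% ± 1.95 (n = 4) in Pietrain thick fat and 66.9% ± 3.28 (n = 4) in Large White thick fat. In thin fat it was 65.5% ± 1.41 (n = 2), 66.3% ± 7.84 (n = 3) and 66.9% ± 0.722 (n = 4) in the same order of breeds, so the higher share of Hampshire was seen in thick fat, and the difference between the classes was not tested. The 21 nt form that lacks the last A held 20.4% ± 3.47, 28.6% ± 3.02 and 25.3% ± 1.85 in the same breeds. Over 12 exact permutation tests of forms, the share of the leading sequence did not pass for Hampshire against Large White or Pietrain (difference of 5.05 and 6.29 percentage points, adjusted p = 0.133 for both).

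The mean length of miR-32 reads did pass, with the fat classes of a breed pooled. Lengths were not compared within a fat class. It was 21.74 ± 0.039 nt (SD, n = 7) in Hampshire, 21.66 ± 0.049 nt (SD, n = 7) in Pietrain and 21.67 ± 0.022 nt (SD, n = 8) in Large White. The difference was 0.064 nt for Hampshire against Large White (exact permutation test, adjusted p = 0.0149) and 0.076 nt for Hampshire against Pietrain (adjusted p = 0.0455). The second call was lost without any 1 of 10 of the 14 libraries compared. Named reads as a whole went the other way, at 21.79 ± 0.059 nt (SD, n = 7) in Hampshire, 21.88 ± 0.040 nt (SD, n = 7) in Pietrain and 21.87 ± 0.038 nt (SD, n = 8) in Large White. Forms with fewer than 6 reads in a library are listed at 0, and the part of that in the lengths was not tested.

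Of miR-92a, the share of the leading sequence and the mean read length were tested between breeds, and neither passed. Its leading sequence held 52.5% ± 3.47 (SD, n = 7) of reads in Hampshire, 54.1% ± 2.88 (SD, n = 7) in Pietrain and 53.4% ± 1.49 (SD, n = 8) in Large White, and its reads averaged 22.35 nt in each breed. The 6 exact permutation tests of miR-92a gave adjusted p-values from 0.735 to 0.890. Reads longer by A were 19.9% ± 2.68 in Hampshire, 16.5% ± 2.10 in Pietrain and 16.0% ± 1.54 in Large White. Reads longer by U were 8.05% ± 1.16 in Hampshire, 9.70% ± 0.769 in Pietrain and 10.1% ± 0.753 in Large White (SD, n = 7, 7 and 8 for both). Both sets of values overlapped between breeds and were not tested.

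**Figure D4:**
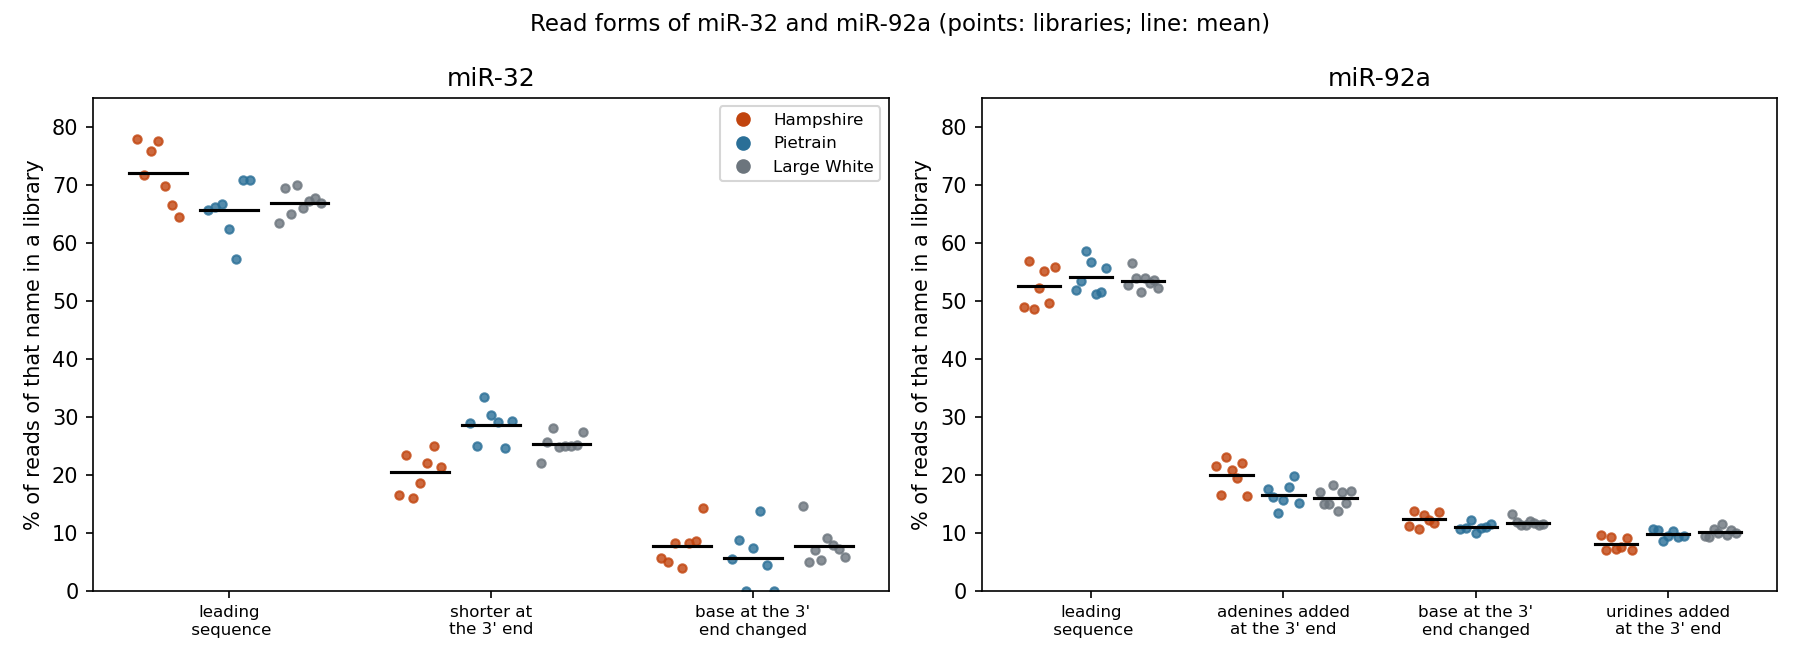
Share of reads (% of all reads of the name, linear axis from 0) by form of miR-32 and miR-92a in each library, by breed, with means as lines. The miR-32 form shorter at the 3′ end averages 20.4% in Hampshire, 28.6% in Pietrain and 25.3% in Large White, while the leading miR-92a sequence lies between 48.6 and 58.7% in all libraries.

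The opposite arm of the miR-32 hairpin was near the limit of the tables. It had 1 sequence, listed in 14 of 22 libraries with at most 19 reads and 155 reads in all.
miR-32-3p: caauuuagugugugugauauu
It was listed in 2 of 7 Hampshire, 5 of 7 Pietrain and 7 of 8 Large White libraries. Hampshire, where miR-32 itself was highest, had the fewest libraries that list the arm. Counts of 6 to 19 sit just above the smallest count the tables hold. Some Hampshire libraries were among the shallower ones, and the part of depth in this was not tested. The arm passed the filter in the comparisons of breeds, and its fitted differences are not given here.

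Other names of the miR-17-92 cluster and its paralogs were measured in the same libraries, and their difference from miR-92a was not tested. Of 11 names listed, 7 were in the tables and 5 were tested. Transcription together with miR-92a was not tested for them. miR-17-5p and miR-20a, which share a seed of their own and are known for promoting cell cycle progression, fell in Hampshire, with log2 fold changes against Large White of -0.68 ± 0.20 and -0.75 ± 0.19 (edgeR adjusted p = 0.0278 and 0.00813). Against Pietrain their log2 fold changes were -1.14 ± 0.21 and -1.40 ± 0.20 (edgeR adjusted p = 5.70e-04 and 5.34e-05). In each comparison 17 of 206 names were called lower (8.25%). Without Hampshire thin fat replicate 1 both calls against Large White were lost (edgeR adjusted p = 0.142 and 0.0706), as they were in thick fat only, in thin fat only and without the pair of libraries richest in miR-122. Those against Pietrain held in all these settings and without any 1 library. edgeR on all libraries called none of the 5 higher. The list's median was -0.68 against Large White and -1.14 against Pietrain, beside -0.02 and -0.04 over all names tested. miR-19b was at 0.49 ± 0.23 and 0.42 ± 0.24 (edgeR adjusted p = 0.139 and 0.243), and thus not called. Against Large White it was called higher without Hampshire thin fat replicate 1 and with DESeq2, and against Pietrain under no alternative run. In the comparisons of fat classes and in Pietrain against Large White, edgeR called none of the list.

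The names whose profile over the 22 libraries was most like that of miR-32 were miR-499-5p, miR-455-5p, miR-27a, miR-148a-3p and miR-186. Likeness was the root mean square difference of log2(CPM + 1) after centring, among 105 names above 0 in every library. It was 0.504 for miR-499-5p and 0.612 for miR-186, against a median of 0.978 over the names. miR-499-5p, a miRNA of slow muscle, averaged 220 ± 90.7 CPM (SD, n = 7) in Hampshire, 91.3 ± 19.0 CPM (SD, n = 7) in Pietrain and 135 ± 38.7 CPM (SD, n = 8) in Large White. Closest to miR-92a were miR-7134-3p (0.225), miR-125a, miR-193a-5p, miR-99b and miR-191 (0.326), against a median of 0.633.

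Markers of other tissues also differed between Hampshire and the other breeds, and their part in the miR-32 result was not tested. The 3 liver names summed to 367 to 27000 CPM with a median of 3406 in Hampshire, 9.45 to 8655 with a median of 877 in Pietrain and 342 to 4146 with a median of 577 in Large White. Of these, miR-192 was called higher in Hampshire than in Large White. The 3 skeletal muscle names found had medians of 1101, 475 and 381 CPM in the same order, with overlapping ranges, and miR-499-5p was called higher in Hampshire than in Pietrain. miR-9, a nerve miRNA, was called higher in Hampshire in both comparisons, with medians of 88.3, 58.6 and 50.4 CPM. Of 7 names of smooth muscle and stroma, 4 were called lower in Hampshire in both, the arms of miR-145 and miR-214, and 2 of the 7 were at 0 in all Hampshire libraries. The other 3, miR-143-3p among them, were not called. The median log2 fold change of the 7 names was -6.29 in both comparisons, beside -0.02 and -0.04 over all names tested. Its size is uncertain, since 4 of the 7 names were at 0 in all Hampshire thin fat libraries. Breed and library batch cannot be told apart in this drop, and its source was not tested. The 7 names together held 52556 to 235055 CPM in Hampshire (median 115889), 61199 to 161430 CPM in Pietrain (median 112813) and 58837 to 242853 CPM in Large White (median 87979), ranges that overlapped. Of the 4 fat cell names found, only miR-148a-3p was called, and it was higher in both. Among the 6 leukocyte names edgeR called 0 against Large White and miR-223 higher against Pietrain, and among the 4 red blood cell names 0 against Large White, with miR-144 and miR-486 in opposite directions against Pietrain. The endothelial names and those of epithelium and skin had no call. miR-122, the liver miRNA, was highest in 2 Hampshire libraries, and without both the miR-32 differences were 1.58 against Large White and 1.80 against Pietrain (edgeR adjusted p = 5.37e-04 and 2.31e-04).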

How the data were processed

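Small RNA libraries (NEBNext kit, RNA integrity number above 7.5, 36 single-end cycles on an Illumina HiScan SQ, per the labels' protocols) were analysed from the authors' deposited read counts per sequence, 1 table for each breed and not normalized. Per the submitters' processing notes, bcl2fastq, FastQC, DESeq2 and Sscrofa10.2 were used. The trimmer, aligner and miRNA release are not given in the sources used here. Per the file headers, the deposited comparisons give for each sequence the mean normalized signal, the log2 difference and its error, the score of the test, and p-values before and after adjustment. Unnamed sequences (80 of 8489, 0.0480% of reads) were left out, and the other counts were summed per name.

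The main test was edgeR 4.0.16 (quasi-likelihood, robust) in R 4.3.3 after TMM scaling, on names passing filterByExpr at a minimum count of 10, with Benjamini-Hochberg adjustment over all names tested and a threshold of 0.05. All 3 members passed this filter in every comparison. Ratios and read forms were compared with exact permutation tests (scipy 1.17.1). Alternatives were other scalings and filters, DESeq2 1.42.0, limma-voom (limma 3.58.1), other sets of sequences, single fat classes and leaving out libraries. The fits were tested on simulated data. Named miRNAs were the family members, the 5 closest profiles for miR-32 and miR-92a, and the called names of the marker and cluster lists. The members and lists were chosen with earlier results of these data known. Library totals set the precision, reads lack molecular identifiers and can be PCR copies of 1 molecule, and the labels list each library as a sample of its own.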

Additional observations from a re-analysis of the deposited data

Results flagged for a closer look

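Of 32 sets of values examined, each a group of 4 or 5 libraries for 1 quantity, 2 held a library that stood apart from the rest of its group by Dixon's criterion. Chance flags about 1 such set in 20. Both were levels of miR-32. Hampshire thick fat replicate 5 had 504 CPM, while the other 4 libraries of its group had 229 to 294 CPM. Without it the miR-32 difference was 1.35 for Hampshire against Large White and 1.63 for Hampshire against Pietrain (log2, edgeR adjusted p = 4.14e-04 and 7.03e-05). Large White thin fat replicate 1 had 171 CPM, while the other 3 libraries of its group had 80.3 to 89.5 CPM. It is 1 of the pair whose fat classes go against the authors' deposited table. Without it the difference of Hampshire from Large White was 1.57 (edgeR adjusted p = 1.02e-04).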

How the results depend on the processing

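The higher miR-32 of Hampshire kept its direction and its call under every alternative run, between 1.18 and 1.91 against Large White and between 1.51 and 1.87 against Pietrain (log2), except that in thin fat only it was 1.03 against Large White, without a call. Without each library in turn it stayed called, at 1.30 to 1.59 and 1.58 to 1.85. The higher ratio of miR-32 to miR-92a also held without each library, at 1.56 to 1.96 and 1.93 to 2.33. Upper quartile scaling moved the median of all names to -0.21 against Large White and -0.29 against Pietrain, and the split to 14 higher of 40 called and 14 of 39.

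The other values that changed sign were called under neither sign, and the cause was not tested. In thick fat only, miR-92a was at 0.071 for Hampshire against Large White, 0.11 for Hampshire against Pietrain and -0.043 for Pietrain against Large White, miR-92b-3p at 0.47 and 0.036 in the first pair of these, and miR-32 at 0.036 and its ratio to miR-92a at 0.011 for Pietrain against Large White. For thick against thin fat over all breeds, leaving out the pair of libraries rich in miR-122 gave -0.025 for miR-32 and -0.048 for miR-92a. miR-92b-3p there was at 0.047 by library totals, 0.0084 with a mean CPM of at least 10, 0.0049 with only the most abundant sequence of each name and 0.13 with the Large White pair exchanged. miR-92a in Large White was at -0.044, -0.011, -0.018 and -0.049 under the same settings. The exchange gave 0.37 for miR-32 and 0.32 for its ratio to miR-92a in Large White. It left the comparisons of breeds nearly as they were (miR-32 at 1.47 and 1.76). Within a fat class, for Hampshire against Large White, it gave 1.37 for miR-32 in thin fat, with a call, 0.13 for miR-92a and 0.26 for miR-92b-3p in thick fat, and 18 names called in either. Running it between breeds was chosen after seeing the data. With only the most abundant sequence of each name, miR-92b-3p in Pietrain was at 0.075 and the ratio in Hampshire at 0.0077.

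Leaving out each library gave -0.056 to 0.25 for miR-92a in Pietrain against Large White, and for thick against thin fat -0.058 to 0.24 over all breeds, -0.066 to 0.14 in Large White and -0.55 to 0.042 in Pietrain. It gave -0.16 to 0.088 for miR-92b-3p over all breeds and -0.65 to 0.28 for the ratio in Hampshire. For the leading miR-32 sequence it gave 4.06 to 6.30 percentage points for Hampshire against Large White, with a call only without Hampshire thin fat replicate 2 (exact permutation test, adjusted p = 0.040), and -2.10 to 0.17 for Pietrain against Large White. For the leading miR-92a sequence in Pietrain against Large White it gave -0.061 to 1.17 percentage points. Mean read length of miR-32 differed by 0.061 to 0.084 nt for Hampshire against Pietrain, by 0.075 nt and uncalled with only sequences listed in all 3 tables, and by -0.019 to 0.0036 nt for Pietrain against Large White. That of miR-92a differed by -0.019 to 0.0093, -0.010 to 0.018 and -0.018 to 0.0030 nt in Hampshire against Large White, Hampshire against Pietrain and Pietrain against Large White.

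Names called numbered 57 with DESeq2, 13 in thick fat only and 17 in thin fat only for Hampshire against Large White, and 19 and 21 in thick and thin fat only for Hampshire against Pietrain. DESeq2 called 7 for Pietrain against Large White, 2 for fat classes over all breeds, 3 in Hampshire, 1 in Pietrain and 2 for a fat difference varying between breeds. Without each library the counts were 22 to 40 and 22 to 43 for Hampshire against Large White and Pietrain, both lowest without Hampshire thin fat replicate 2. They were 0 to 1 over all breeds, in Hampshire and in Large White, and 0 to 2 in Pietrain and for the varying difference.

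No paired analysis was possible because each number in the titles occurs once within a breed, and nothing in the labels ties libraries of different breeds. Depth limits miR-92b-3p, at 11 to 252 reads, and rare forms, which the tables list at 0 below 6 reads. Only 2 libraries stand for Hampshire thin fat.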
